A study of Mus musculus with 9 samples.

Results

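Kidneys of untreated mice that carry human CD89, the Fc receptor for IgA, were compared with kidneys of wild-type mice across all genes expressed in the series. The labels' genotype and treatment fields chose the libraries, 6 of the 9 in the series and 3 in each group. The WT group was C57/BL6 mice given saline by gavage. The IgAN group was mice of the genotype Itgam-IRES-hCD89, also given saline by gavage. The remaining 3 libraries came from mice of the same knock-in genotype that received GQYS, a granule preparation, by daily gavage for 5 months, and they entered the statistical model only to estimate the spread between libraries. The length of the saline gavage, the age and sex of the mice, and whether each library was a separate animal were not given in the labels, and the p-values therefore rest on how far these libraries differ, some of which may be technical.

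IgA nephropathy is a glomerular disease in which IgA collects in the mesangium, the supporting tissue between the glomerular capillaries. CD89 is a human IgA receptor of neutrophils, monocytes and macrophages, and mice have no gene of their own for it. Itgam encodes CD11b, an integrin chain of the same myeloid cells, and the label Itgam-IRES-hCD89 names an internal ribosome entry site by which the human receptor is made from that gene's transcript.

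Levels are given as FPKM, reads scaled to the length of the gene and the depth of the library, so that levels can be set side by side between genes. Of 26139 genes in the table, 11617 reached 1 FPKM in at least 3 of the 9 libraries and were tested. The test was limma, a linear model that shares information on spread between genes, on log2(FPKM + 1). A gene passed when its p adjusted over all tested genes by the Benjamini-Hochberg method was under 0.05. Log2 changes are IgAN minus WT on the log2(FPKM + 1) scale, which understates the change of genes at low levels. A second, descriptive count was of genes whose ranges lay apart, with all 3 IgAN libraries above, or all below, all 3 WT libraries.

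The 6 libraries held 30564947 to 38161564 reads assigned to genes. They did not sort by group alone. On the first principal component, with 50.3% of the variance, WT replicate 1 at -26.1 and IgAN replicate 1 at -21.7 stood together, and the other 4 libraries lay between -1.89 and 21.7. The second, with 25.9%, placed the WT libraries between -21.2 and -7.31 and the IgAN libraries between 8.79 and 16.5. Reads of mitochondrially encoded genes made up 18.6% of WT replicate 1 and 7.81% to 11.3% of the other 5. WT replicate 3 alone held the fat cell genes Cfd at 11.4 FPKM and Adipoq at 2.89 FPKM, which were at most 0.158 FPKM in the other 5. The summed level of the fat tissue list, which Lpl at 212 to 346 FPKM dominates, was lowest in that library, at 379 against 385 to 469 FPKM. The summed urothelial list was highest there, at 21.5 against 2.12 to 13.7 FPKM. WT replicate 2 was set apart by Entpd4b, Wdfy1 and Nnt, which are known to differ between C57BL/6 substrains. Entpd4b was at 6.74 FPKM in WT replicate 2 and 0.75 to 1.24 FPKM in the other 5, and Wdfy1 was at 7.66 FPKM against 3.04 to 4.41 FPKM. Nnt, a mitochondrial transhydrogenase, was at 54.8 FPKM in WT replicate 2 and 25.2 to 39.4 FPKM in the others. Entpd4b has near-identical copies that could share its reads. Other substrain genes did not set WT replicate 2 apart. Ide was at 16.3 FPKM there against 11 to 16.6 FPKM, and Fgfbp3 at 0.641 against 0.265 to 1.15 FPKM. Entpd4, Crb1 and Nlrp12 were at 0.272 FPKM or less in all 6 libraries. Xist was at most 0.0073 FPKM and the Y-linked Ddx3y lay between 5.21 and 9.74 FPKM in all 6 libraries.

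Kidney tissue was evident in every library. The most abundant genes included Kap, an androgen-regulated protein of the proximal tubule, at 35922 to 65688 FPKM, and Gpx3, the secreted glutathione peroxidase made by that tubule, at 11634 to 14369 FPKM. The 10 most abundant also included the mitochondrially encoded COX1, CYTB, ND1, ND2, ND4 and ND5 and the ferritin heavy chain gene Fth1. None of the 10 passed the test (limma adjusted p between 0.628 and 0.979), and their FPKM ranges overlapped between the groups.

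Itgam, the knock-in locus, stood at 0.34, 0.716 and 0.428 FPKM in WT replicates 1, 2 and 3 and at 0.433, 0.261 and 0.172 FPKM in IgAN replicates 1, 2 and 3. The groups overlapped, and these values rest on 56, 128 and 62 reads in WT and 62, 42 and 27 reads in IgAN. The mean was 0.495 ± 0.197 FPKM in WT and 0.289 ± 0.132 FPKM in IgAN (SD, n = 3), with a two-sided exact permutation p of 0.3, and with 3 libraries a group p cannot go below 0.1. An entry site added to the transcript leaves the counted mouse gene in place, so these reads do not check the genotype, and the human receptor was not analysed here. Of 21 tested genes that neighbour Itgam, 0 passed the test (0 at an unadjusted p under 0.05), their median log2 change was 0.04, and the ranges of 1 of them, Kat8, a histone acetyltransferase, lay apart.

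In all, 41 genes passed the test, 0.353% of those tested. Of these, 35 rose (0.301% of tested genes) and 6 fell (0.0516%), and all 41 had ranges that lay apart. Ranges lay apart for 14% of all tested genes, with IgAN higher for 9.18% and lower for 4.8%. At an unadjusted p under 0.05, 6.97% of tested genes were higher and 3.37% lower. The median log2 change of all tested genes was 0.021, and 80.3% of genes lay within 0.25 of 0 on that scale. Of 63 genes with an estimated log2 change of 1 or more, 23 passed, and of 12 genes at -1 or less, 2 passed. None of the 41 was a predicted or clone-named gene, and no gene was at 0.5 FPKM or more in every library of one group and at 0 in every library of the other.

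**Figure D1:**
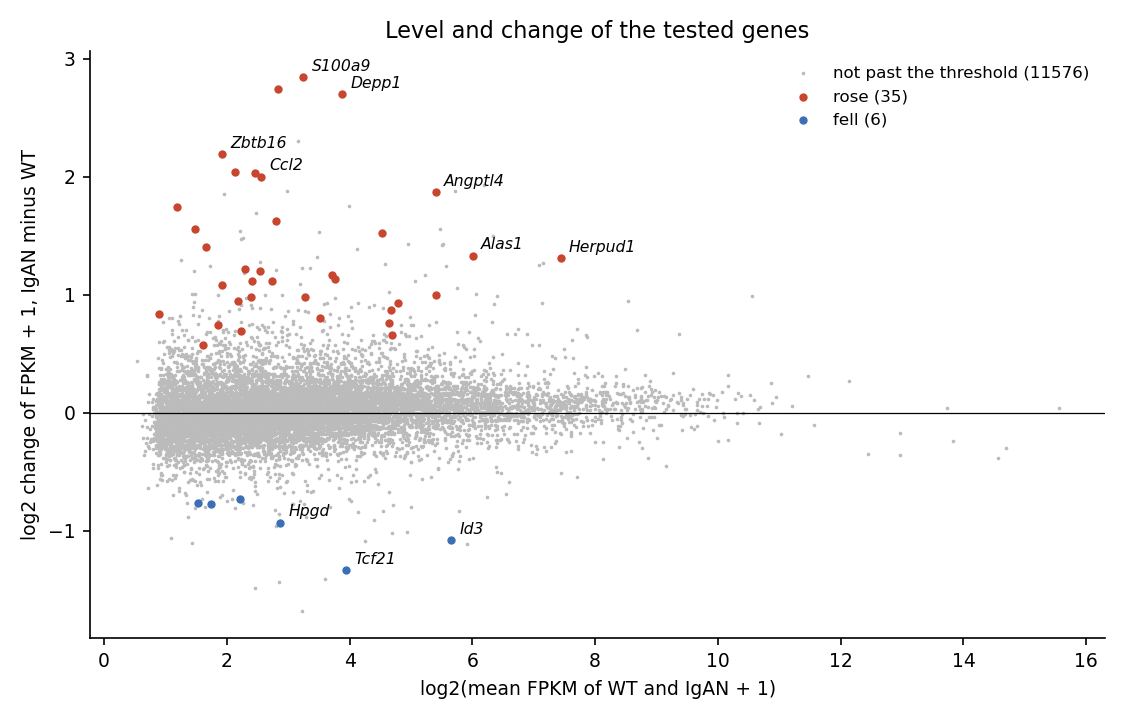
Each point is 1 of the 11617 tested genes, with the log2 of its mean FPKM + 1 over WT and IgAN on the x axis and its log2 change, IgAN minus WT, on the y axis. The 35 genes that rose (red) reach 2.84 for S100a9, and the 6 that fell (blue) lie between -1.33 and -0.73.

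The number of calls depended on single libraries. It was 65 without WT replicate 1, and 14, 22, 25 and 15 without WT replicate 2, WT replicate 3, IgAN replicate 1 and IgAN replicate 3. Without GQYS replicate 2 it was 25 and without GQYS replicate 3 it was 24. In limma on the 6 WT and IgAN libraries alone 11 genes passed, all higher. With limma's library quality weights, which counted WT replicate 1 at 0.171 and WT replicate 2 at 3.2, 655 passed, 359 higher and 296 lower. Retnlg, S100a9, Serpina3g, Depp1, Zbtb16, Casp4, Csf1, Socs3, S100a8 and Herpud1 passed in each fit that left out 1 of the 9 libraries, with adjusted p of at most 0.0276 in limma. Limma-voom on the recovered reads called no gene beyond the 41, so lists with 0 genes passed here also had 0 there. The calls of the other 31 ended without at least 1 library, as given beside each gene named. Of the 41, Retnlg, Zbtb16 and Chac1 reached 1 FPKM in IgAN libraries only, so they were tested only because of the group where they were high. Of all tested genes, 19 reached 1 FPKM only there, and they bear on the upward counts of the lists that hold them. In what follows, a range after a list's median gives its lowest and highest value when 1 WT or IgAN library was left out. Each list's count of ranges apart is to be read beside the shares of all tested genes, 9.18% upward and 4.8% downward. No gene of the 41 changed direction in any of the 22 alternative fits. Where libraries were left out this was fixed in advance, because the ranges of all 41 lay apart.

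Calprotectin is the calcium-binding alarmin of myeloid cells. In the fit of all libraries, its subunits had the highest log2(FPKM + 1) changes of the genes that rose. Without WT replicate 3, Depp1 at 2.74 was above S100a9 at 2.61 and S100a8 at 2.42. The order also depended on the scale. In limma-voom on the recovered reads, Retnlg at 5.80 was above S100a8 at 3.95, Zbtb16 at 3.88 and S100a9 at 3.56. With a pseudocount of 0.1, Retnlg was again above both subunits. S100a9, a calprotectin subunit, was at 1.63, 1.8 and 0.679 FPKM in WT and at 16.5, 16.7 and 13.5 FPKM in IgAN. S100a8, its partner, was at 1.67, 0.935 and 0.165 FPKM in WT and at 13.7, 9.96 and 10.2 FPKM in IgAN. Every IgAN library thus lay far above every WT library for both subunits, and WT replicate 3 was the lowest of all. The log2 changes were 2.84 ± 0.197 (SE, limma adjusted p = 0.000338) for S100a9 and 2.74 ± 0.284 (limma adjusted p = 0.00312) for S100a8. Retnlg, a resistin-like protein of neutrophils, was at 0, 0 and 0.16 FPKM in WT, which is 3 reads in all, and at 2.47, 2.78 and 2.26 FPKM in IgAN, from 46, 58 and 46 reads. Its log2 change was 1.74 (limma adjusted p = 0.000301), and it was tested only through its IgAN libraries.

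Of the 27 genes on the neutrophil and calprotectin list, 26 were in the table and 5 were tested. The other 21 were under the filter, and Retnlg was kept by it only through IgAN, so counts over the 5 describe the filter as well as the groups. Of the 5, 3 rose and 4 had ranges apart upward. The summed level of the 26 genes was 3.99 to 8.03 FPKM in WT and 37 to 63.8 FPKM in IgAN. Lcn2, a siderophore-binding protein of neutrophils and injured tubules, was at 1.53, 3.81 and 0.758 FPKM in WT and 24, 5.43 and 5.68 FPKM in IgAN and did not pass (limma adjusted p = 0.192). S100a9, S100a8 and Lcn2 made up most of the summed level in each IgAN library, so it does not describe the whole list. Among the 21 members under the filter, Csf3r, the granulocyte colony-stimulating factor receptor, stood at 0.107 to 0.362 FPKM in WT and 0.832 to 1.23 FPKM in IgAN. Cxcr2, a chemokine receptor of neutrophils, was at 0.0273 to 0.0829 FPKM in WT and 0.209 to 0.448 FPKM in IgAN. Clec4d and Trem1, receptors of myeloid cells, were at 0.0242 FPKM or less in WT and at 0.336 to 0.458 and 0.0634 to 0.191 FPKM in IgAN. The ranges of all 4 lay apart, at levels too low to be tested. Granule genes of neutrophil precursors were at or near 0: Elane was 0 in all 6 libraries, and Ctsg and Ngp did not exceed 0.1 FPKM. Ly6g, a surface marker of mature neutrophils, did not exceed 0.1 FPKM either. In bulk tissue, more cells of a type and more RNA per cell cannot be told apart, and the part of neutrophil number in these rises was not tested.

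Monocyte and macrophage markers showed no gene past the test. Of 21 tested, 0 passed (3 higher and 1 lower at an unadjusted p under 0.05). Ranges lay apart upward for 2 and downward for 1, shares close to the 9.18% and 4.8% of all tested genes. The median log2 change of the 21 was 0.30. It was 0.07 without WT replicate 3 and 0.13 without IgAN replicate 1. Fcgr3 and Cd14, an IgG receptor and the endotoxin co-receptor, had ranges apart upward, at 0.898 to 1.7 against 2.1 to 2.77 FPKM and 2.53 to 3.34 against 4.01 to 6.91 FPKM. Fcgr2b, the inhibitory IgG receptor, lay apart downward, at 16.3 to 18.5 FPKM in WT and 14 to 14.4 FPKM in IgAN. None of these 3 passed (limma adjusted p = 0.294, 0.347 and 0.483). The summed level of the list was 122 to 217 FPKM in WT and 193 to 199 FPKM in IgAN replicates 2 and 3. It was 401 FPKM in IgAN replicate 1, where Lgals3, galectin-3, alone made up 160 FPKM. Of the 7 tested dendritic cell and MHC class II genes, 0 passed (0 at an unadjusted p under 0.05) and the median log2 change was 0.10 (range -0.06 to 0.19).

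Of 16 T, B and NK cell genes in the table, 2 were tested and 0 passed (1 lower at an unadjusted p under 0.05), and the summed level of the 16 was 10.3 to 32.1 FPKM in WT and 4.46 to 9.93 FPKM in IgAN. The part of lymphocyte number in these values was not tested. Jchain, the joining chain of secreted IgA and IgM, was at 24.4, 8.6 and 7.08 FPKM in WT and at 4.76, 1.23 and 3.63 FPKM in IgAN. The ranges lay apart and the log2 change was -1.68, but the gene did not pass (limma adjusted p = 0.187). Jchain made up most of the summed level in each WT library, so that sum does not describe the members as a set. Cd79a and Cd79b, the signalling chains of the B cell receptor, were under the filter, at 0.387 to 1.08 and 0.631 to 1.08 FPKM in WT and 0 to 0.326 and 0.284 to 0.398 FPKM in IgAN. Both were chosen after their values were seen, from 14 members under the filter, and they do not describe the others. On the list of CD89 partners, IgA receptors, beta-2 integrins and related genes, 0 of 15 tested passed (3 higher and 1 lower at an unadjusted p under 0.05). Their median log2 change was 0.13 (range 0.05 to 0.22). Among them were Pigr, which carries IgA across epithelia, and Tfrc, the transferrin receptor that also binds IgA in the mesangium. Tfrc stood at 14, 19.2 and 23.1 FPKM in WT and 10.2, 14.7 and 12.7 FPKM in IgAN, which overlapped (limma adjusted p = 0.303).

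Cytokine and chemokine genes rose in a few members. Csf1, the growth factor of macrophages, was at 2.64, 2.58 and 2.37 FPKM in WT and at 7.6, 6.46 and 7.29 FPKM in IgAN (log2 change 1.20 ± 0.114, SE, limma adjusted p = 0.0019). Ccl2, which draws monocytes, was at 2.79, 1.49 and 0.321 FPKM in WT and at 7.71, 8.35 and 8.75 FPKM in IgAN (log2 change 2.0 ± 0.301, limma adjusted p = 0.0292). Its WT libraries differed widely among themselves while the IgAN libraries were close together. The call of Ccl2 held without WT replicate 1 or WT replicate 3, and it ended without each of the other 7 libraries in turn (limma adjusted p 0.0535 to 0.137). Of 15 tested chemokines, 1 passed, 5 had ranges apart upward and 1 downward, against 9.18% and 4.8% of all tested genes. The filter kept 2 of the 15 only through IgAN libraries, so the upward count describes the filter as well as the groups. The median log2 change was 0.02, but 0.38 without WT replicate 1 and -0.07 without WT replicate 3. Cx3cl1, the membrane-bound chemokine fractalkine, was at 22.5 to 23.3 FPKM in WT and 31.6 to 49.3 FPKM in IgAN (limma adjusted p = 0.0755, or 0.0434 without IgAN replicate 2). Cxcl12, which retains leukocytes in tissue, was the member lower in IgAN, at 19.1 to 25.4 against 11.4 to 17.2 FPKM (limma adjusted p = 0.327). Of 19 tested cytokines and receptors, 2 rose and 7 had ranges apart upward, with a median log2 change of 0.26. The filter kept 1 of the 19 only through IgAN libraries, and Il1b reached 1 FPKM in no WT library. Il1b, interleukin-1 beta, stood at 0.873, 0.846 and 0.411 FPKM in WT and 1.7, 1.91 and 2.14 FPKM in IgAN and did not pass (limma adjusted p = 0.073).

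The other cytokine member that rose was Osmr, the receptor chain for oncostatin M, a cytokine of the interleukin-6 family that signals through JAK kinases and STAT3. Osmr was at 1.61 to 2.25 FPKM in WT and at 8.46, 4.59 and 4.71 FPKM in IgAN (log2 change 1.22, limma adjusted p = 0.0343). Socs3, a STAT3 target that shuts off this signal, was at 0.926, 0.738 and 0.426 FPKM in WT and at 8.68, 5.24 and 4.46 FPKM in IgAN (log2 change 2.04 ± 0.207, SE, limma adjusted p = 0.00292). Cebpd, a transcription factor of the acute-phase response, was at 3.07, 2 and 2 FPKM in WT and at 13.7, 7.46 and 7.67 FPKM in IgAN (log2 change 1.62, limma adjusted p = 0.0136). In all 3 genes IgAN replicate 1 was the highest library, and the other IgAN libraries still lay above every WT library. Pim1, a kinase induced by STAT proteins, rose by 0.98 from 2.56 ± 0.526 to 5.97 ± 0.828 FPKM (SD, n = 3; limma adjusted p = 0.0369). Socs3, Cebpd and Pim1 were the 3 that rose of 26 tested genes of the JAK-STAT, SOCS and C/EBP list. Of the 26, 7 had ranges apart upward and 1 downward, against 9.18% and 4.8% of all tested genes. The median log2 change was 0.13 (range 0.08 to 0.19). Stat3 itself was at 10.3, 15 and 14.6 FPKM in WT and 26.9, 19.1 and 17.4 FPKM in IgAN and did not pass (limma adjusted p = 0.24). The call of Cebpd ended without WT replicate 2 (limma adjusted p = 0.0665) and without WT replicate 3 (0.057). That of Osmr held without WT replicate 1, IgAN replicate 1 or IgAN replicate 2 and ended without each of the other 6 libraries (limma adjusted p 0.068 to 0.116). That of Pim1 held without WT replicate 1 or GQYS replicate 1 only, and ended otherwise (0.0638 to 0.131).

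A pair of adhesion molecules that hold leukocytes at the vessel wall rose. Vcam1, the ligand of the leukocyte integrin VLA-4, was at 3.46, 3.82 and 2.43 FPKM in WT and at 8.43, 7.72 and 8.27 FPKM in IgAN (log2 change 1.12 ± 0.137, SE, limma adjusted p = 0.0107). Icam1, a ligand of beta-2 integrins such as CD11b with CD18, was at 8.96, 7.86 and 5.8 FPKM in WT and at 18.2, 16.1 and 18.1 FPKM in IgAN (log2 change 1.13, limma adjusted p = 0.0172). Both genes separated the groups without overlap, with little spread among the IgAN libraries. They were the 2 of 12 tested adhesion molecules that passed, 3 had ranges apart upward, and the median log2 change of the 12 was 0.08 (range 0.03 to 0.20). The call of Vcam1 ended without IgAN replicate 3 (limma adjusted p = 0.0608). That of Icam1 ended without WT replicate 2, IgAN replicate 1 or IgAN replicate 3 (limma adjusted p = 0.0665, 0.0662 and 0.102).

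**Figure D2:**
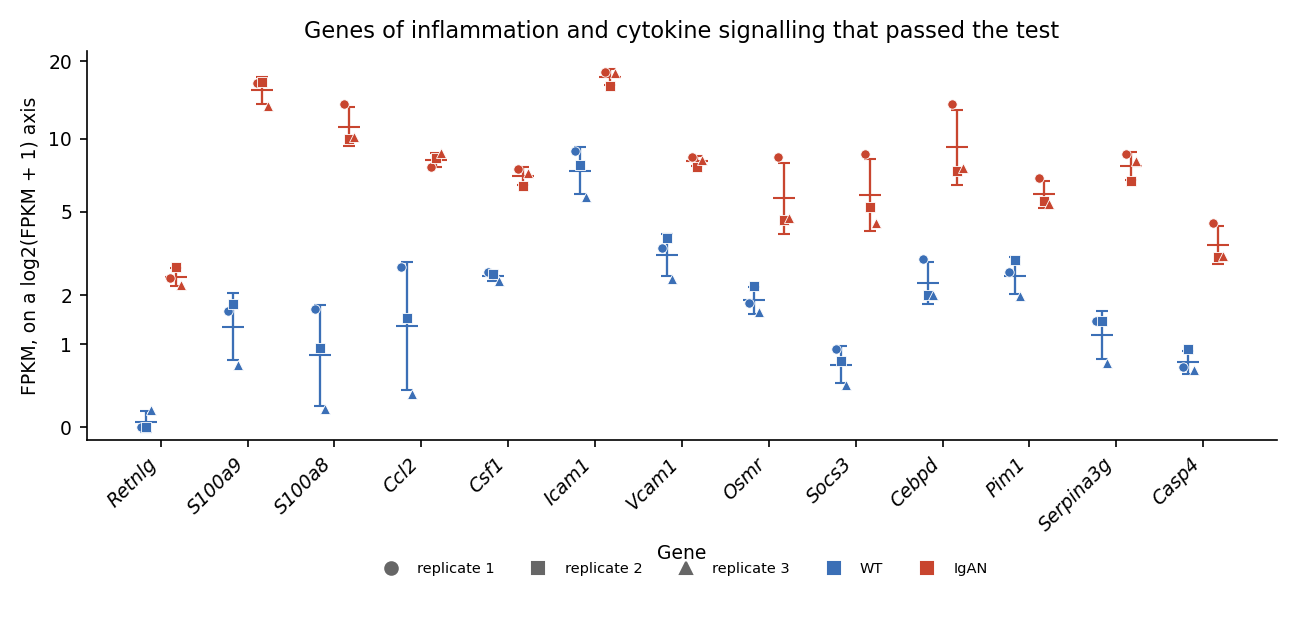
FPKM of 13 genes that rose, on a log2(FPKM + 1) axis, with 1 symbol for each WT (blue) and IgAN (red) library and a bar for the mean with its SD on that axis. In every gene shown the lowest IgAN library lies above the highest WT library, and IgAN replicate 1 (circle) is the highest for Osmr, Socs3 and Cebpd.

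NF-kB is the transcription factor family through which tumour necrosis factor and interleukin-1 induce many of these genes. None of 23 tested NF-kB subunits and feedback regulators passed (8 higher at an unadjusted p under 0.05), 9 had ranges apart upward and 0 downward, and the median log2 change was 0.24. The subunit genes Nfkb1, Nfkb2 and Rela were at 5.59 to 6.77, 1.2 to 1.33 and 7.82 to 8.95 FPKM in WT and at 8.41 to 10.3, 2.01 to 3.45 and 9.81 to 14.3 FPKM in IgAN (limma adjusted p = 0.165, 0.153 and 0.26). Of 10 tested members of the tumour necrosis factor ligand and receptor families, 0 passed (5 higher at an unadjusted p under 0.05) and 5 had ranges apart upward, with a median log2 change of 0.28. Tnfrsf1a, the main receptor for tumour necrosis factor in the kidney, was at 17.8, 19.8 and 21 FPKM in WT and 37, 23.4 and 28.2 FPKM in IgAN (limma adjusted p = 0.192). Tnf itself stayed under the filter, at 0.297 FPKM or less in every library.

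RefSeq promoter sequences (GRCm38.p6) were searched for 8 short motifs in the 250 bases before each start, on both strands. Of the 41 genes that passed, 30 had at least 1 sequence, with 41 sequences in all. The NF-kB letters GGGANTTTC occurred in 2 of the 41 and in 0.751% of the sequences of all tested genes, those of S100a9 and Csf1. The STAT letters TTCCNGGAA occurred in 1, that of Icam1, against 1.03% of all tested, and the cyclic AMP response letters TGACGTCA in 1, that of Maff, against 2.44%. The other counts were 3 for the glucocorticoid element core ACANNNTGT (3.83% of all tested), 4 for the heat shock letters TTCNNGAA (5.98%) and 5 for the FOXO letters GTAAACA (2.27%). Casp4 has 2 overlapping sequences that hold the same heat shock and the same FOXO match, so these counts are of 3 and 4 genes. The C/EBP letters TTGCGCAA (0.264%) and the endoplasmic reticulum stress element (0.145%) occurred in 0 of the 41. The sequences with the NF-kB, STAT and cyclic AMP response letters are shown with the matching letters in capitals, since they belong to an alarmin, a growth factor, an adhesion molecule and an immediate-early factor that rose. They lie at chr3:90695722-90695971 (minus strand) for S100a9, chr3:107760470-107760719 (minus strand) for Csf1, chr9:21015690-21015939 (plus strand) for Icam1 and chr15:79347270-79347519 (plus strand) for Maff. The matches begin 135, 153, 42 and 29 bases before the start.
S100a9: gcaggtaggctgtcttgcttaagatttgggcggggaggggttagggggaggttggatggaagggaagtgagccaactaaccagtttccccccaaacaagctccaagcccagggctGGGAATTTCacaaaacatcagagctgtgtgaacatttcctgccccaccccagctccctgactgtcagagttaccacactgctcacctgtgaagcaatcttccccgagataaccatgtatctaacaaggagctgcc
Csf1: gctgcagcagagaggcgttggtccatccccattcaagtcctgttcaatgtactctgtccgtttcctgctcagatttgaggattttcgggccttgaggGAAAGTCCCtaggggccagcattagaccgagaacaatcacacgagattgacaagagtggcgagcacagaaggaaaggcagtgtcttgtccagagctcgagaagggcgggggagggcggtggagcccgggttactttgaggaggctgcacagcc
Icam1: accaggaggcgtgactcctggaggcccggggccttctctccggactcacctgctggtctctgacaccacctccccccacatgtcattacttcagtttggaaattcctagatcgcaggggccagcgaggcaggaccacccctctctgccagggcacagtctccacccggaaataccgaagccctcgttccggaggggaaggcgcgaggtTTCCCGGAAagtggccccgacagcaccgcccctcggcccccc
Maff: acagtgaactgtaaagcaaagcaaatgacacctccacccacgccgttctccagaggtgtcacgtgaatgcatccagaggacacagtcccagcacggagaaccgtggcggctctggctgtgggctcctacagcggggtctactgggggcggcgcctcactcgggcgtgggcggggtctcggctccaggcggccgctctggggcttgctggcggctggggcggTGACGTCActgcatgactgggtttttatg
A match is a description of these letters and not evidence of binding, and the NF-kB match of Csf1 is on the opposite strand.

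Of the acute-phase and complement genes, 1 rose. Serpina3g, an intracellular inhibitor of cysteine proteases, was at 1.42, 1.43 and 0.712 FPKM in WT and at 8.69, 6.73 and 8.13 FPKM in IgAN (log2 change 2.03 ± 0.155, SE, limma adjusted p = 0.00057). Its near-identical paralogs may share reads with it. Of 15 tested acute-phase and Serpina3 genes, 1 passed, 6 had ranges apart upward and 1 downward, with a median log2 change of 0.62. Without IgAN replicate 1 that median was 0.36. None of 20 tested complement genes passed (3 higher and 1 lower at an unadjusted p under 0.05) and their median log2 change was 0.12 (range 0.06 to 0.17), with 4 ranges apart upward and 1 downward. C3, the central complement component, was at 3.63, 3.23 and 2.85 FPKM in WT and 5.94, 4.8 and 4.97 FPKM in IgAN (limma adjusted p = 0.0936). Its ranges lay apart, with the lowest IgAN library above the highest WT library.

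Casp4, the inflammatory caspase that senses bacterial lipopolysaccharide in the cytosol and sets off pyroptosis, was at 0.649, 0.914 and 0.608 FPKM in WT and at 4.46, 3.13 and 3.17 FPKM in IgAN (log2 change 1.40 ± 0.132, SE, limma adjusted p = 0.0019). It was the 1 member that rose of 16 tested genes of inflammasomes and cell death. The filter kept 1 other of the 16 only through IgAN libraries. The median log2 change of the 16 was 0.13, but 0.04 without WT replicate 1, -0.01 without WT replicate 3 and 0.03 without IgAN replicate 1. Pycard, the inflammasome adaptor, which also neighbours Itgam, was at 3.09 to 5.68 FPKM in WT and 2.53 to 3.49 FPKM in IgAN, which overlapped (limma adjusted p = 0.635). Of 36 tested interferon response and MHC class I genes, 0 passed (7 higher at an unadjusted p under 0.05). Of the 36, 5 had ranges apart upward, against 9.18% of all tested genes. The median log2 change was 0.14 (range 0.07 to 0.21).

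Genes induced by glucocorticoids and by fasting included some of the largest rises. Zbtb16, a transcription factor strongly induced through the glucocorticoid receptor, was at 0.266, 0.436 and 0.354 FPKM in WT and at 6.46, 5.41 and 3.88 FPKM in IgAN (log2 change 2.19 ± 0.189, SE, limma adjusted p = 0.00108). It was tested only through its IgAN libraries. Depp1, a FOXO target that rises in fasting, was at 2.24, 3.44 and 3.17 FPKM in WT and at 26.5, 25.5 and 21.5 FPKM in IgAN (log2 change 2.70 ± 0.219, limma adjusted p = 0.000773). Angptl4, an inhibitor of lipoprotein lipase induced by PPARs, glucocorticoids and fasting, was at 20.3, 18.1 and 13 FPKM in WT and at 81.8, 50.5 and 63.7 FPKM in IgAN (log2 change 1.87, limma adjusted p = 0.0136). The lowest IgAN library was above the highest WT library by a wide margin in each of these genes. Ucp2, a mitochondrial carrier of the inner membrane, rose by 1.0 from 27.4 ± 3.37 to 56 ± 7.47 FPKM (SD, n = 3; limma adjusted p = 0.0369). The call of Angptl4 ended without WT replicate 2 (limma adjusted p = 0.0573) and without IgAN replicate 3 (0.0752). That of Ucp2 held without WT replicate 1 or GQYS replicate 1 only, and ended otherwise (limma adjusted p 0.0576 to 0.139).

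Of 34 tested glucocorticoid targets and receptors, 3 rose (Zbtb16, Angptl4 and Cebpd). Of the 34, 13 had ranges apart upward and 0 downward, against 9.18% and 4.8% of all tested genes. The median log2 change was 0.44. Leaving out 1 WT or IgAN library kept that median between 0.36 and 0.50. Fkbp5, the receptor's co-chaperone and a classic target, was at 13.5, 19.2 and 27.4 FPKM in WT and 61.7, 41.2 and 31.4 FPKM in IgAN and did not pass (limma adjusted p = 0.153). Tsc22d3, which encodes the glucocorticoid-induced leucine zipper, was at 14, 10 and 12 FPKM in WT and 19.4, 16.6 and 14.6 FPKM in IgAN (limma adjusted p = 0.244). The ranges of both genes lay apart, with a graded spread inside each group. Of 30 tested fasting and FOXO targets, 3 rose (Depp1, Angptl4 and Ucp2), 10 had ranges apart upward and 0 downward. The median log2 change was 0.27, 0.15 without WT replicate 1 and 0.43 without WT replicate 2. Pdk4, which restrains glucose oxidation, was at 5.33, 7.88 and 4.57 FPKM in WT and 16, 16.3 and 39.9 FPKM in IgAN (limma adjusted p = 0.158). Igfbp1, an insulin-repressed binding protein, was at 0.542, 1.84 and 1.51 FPKM in WT and 9.68, 4.94 and 3.26 FPKM in IgAN (limma adjusted p = 0.126). None of the 22 tested clock genes passed (6 higher at an unadjusted p under 0.05), 4 had ranges apart upward, and their median log2 change was 0.19 (range 0.12 to 0.29). The clock gene Nr1d1 varied inside IgAN, at 5.36 FPKM in replicate 1 and 15.6 and 15.5 FPKM in replicates 2 and 3, against 4.48 to 7.09 FPKM in WT. It passed without IgAN replicate 1 (limma adjusted p = 0.0447). The hour of tissue collection and the feeding state were not given in the labels, and their part in these values was not tested.

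Among lists with 10 or more tested genes, the genes of endoplasmic reticulum stress, which manage misfolded secretory proteins, had the largest share of ranges apart. Herpud1, a membrane protein that helps degrade misfolded proteins, was at 100, 83.6 and 115 FPKM in WT and at 240, 261 and 236 FPKM in IgAN (log2 change 1.31 ± 0.14, SE, limma adjusted p = 0.00386). It was the 1 gene that passed of 36 tested, but 22 of the 36 had ranges apart upward and 0 downward, where 9.18% of all tested genes did so upward. The median log2 change of the 36 was 0.33, and it stayed between 0.28 and 0.40 when 1 WT or IgAN library was left out. Hspa5, the main chaperone BiP, was at 268, 201 and 291 FPKM in WT and 469, 529 and 459 FPKM in IgAN (limma adjusted p = 0.0677). Hyou1 was at 19.4, 17.7 and 30.5 FPKM in WT and 48, 60.8 and 44 FPKM in IgAN (limma adjusted p = 0.0533). Manf, a secreted stress-response protein, was at 108, 58.1 and 85.8 FPKM in WT and 214, 208 and 174 FPKM in IgAN (limma adjusted p = 0.0755). In these 3 genes WT replicate 2 was the lowest library and every IgAN library lay above the WT range, yet none passed. Hyou1 passed without WT replicate 3 (limma adjusted p = 0.015) and Manf without WT replicate 1 (0.033). The calls of the list were 4 without WT replicate 1 and 3 without WT replicate 3. Xbp1, a transcription factor of this response, was at 50 to 62.7 FPKM in WT and 92.6 to 137 FPKM in IgAN (limma adjusted p = 0.132).

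ATF4 is the transcription factor of the response to amino acid shortage, which shares its upstream kinase step with reticulum stress. Chac1, which breaks down glutathione, was at 0.38, 0.434 and 0.206 FPKM in WT and 1.29, 1.19 and 1.71 FPKM in IgAN (log2 change 0.84, limma adjusted p = 0.0257). It was tested only through its IgAN libraries. It was the 1 gene that rose of 27 tested ATF4 targets, of which 11 had ranges apart upward and 0 downward, with a median log2 change of 0.28. Asns, asparagine synthetase, was at 1.03, 1.61 and 0.845 FPKM in WT and 3.24, 2.08 and 2.53 FPKM in IgAN (limma adjusted p = 0.153). The call of Chac1 held without WT replicate 1, IgAN replicate 2, GQYS replicate 1 or GQYS replicate 3 and ended without each of the other 5 libraries (limma adjusted p 0.0515 to 0.114).

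Cytosolic heat shock proteins keep proteins folded outside the reticulum. None of 42 tested heat shock proteins and co-chaperones passed (22 higher at an unadjusted p under 0.05). Of the 42, 20 had ranges apart upward and 1 downward, against 9.18% and 4.8% of all tested genes. The median log2 change was 0.34 and stayed between 0.29 and 0.42 without any 1 WT or IgAN library. The calls of the list depended on WT replicate 1: 10 genes passed without it, and 6 without replicate 1 of both groups (Ahsa1, Ahsa2, Dnaja1, Hspb1, Hsph1 and Stip1). Hsp90ab1, the constitutive HSP90, was at 490, 458 and 577 FPKM in WT and 743, 844 and 831 FPKM in IgAN (limma adjusted p = 0.0566). Dnaja1, a co-chaperone of HSP70, was at 116, 73.4 and 101 FPKM in WT and 184, 169 and 195 FPKM in IgAN (limma adjusted p = 0.0626, or 0.0214 without WT replicate 1). The inducible HSP70 gene Hspa1a was at 67.3 FPKM in WT replicate 1 but 4.44 and 18.3 FPKM in the other WT libraries, against 65.7, 47.4 and 56.4 FPKM in IgAN, and it passed without WT replicate 1 (limma adjusted p = 0.0392). Hspa1a and Hspa1b are near-identical and could share reads. WT replicate 2 was the lowest library for all 3 genes.

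Alas1, the first enzyme of heme synthesis, which fasting induces in liver, was at 36.7, 27.7 and 43.8 FPKM in WT and at 90.7, 86.4 and 95.3 FPKM in IgAN (log2 change 1.33, limma adjusted p = 0.034). It was the 1 gene that rose of 33 tested genes of the NRF2 response, heme and iron, whose median log2 change was 0.06 (range 0.06 to 0.14). Hmox1, heme oxygenase, was at 29.7, 25.8 and 28.2 FPKM in WT and 60.4, 36.4 and 48.1 FPKM in IgAN (limma adjusted p = 0.18). The call of Alas1 held without WT replicate 1, WT replicate 3, GQYS replicate 1 or GQYS replicate 3, and ended without each of the other 5 libraries (limma adjusted p 0.063 to 0.145).

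**Figure D3:**
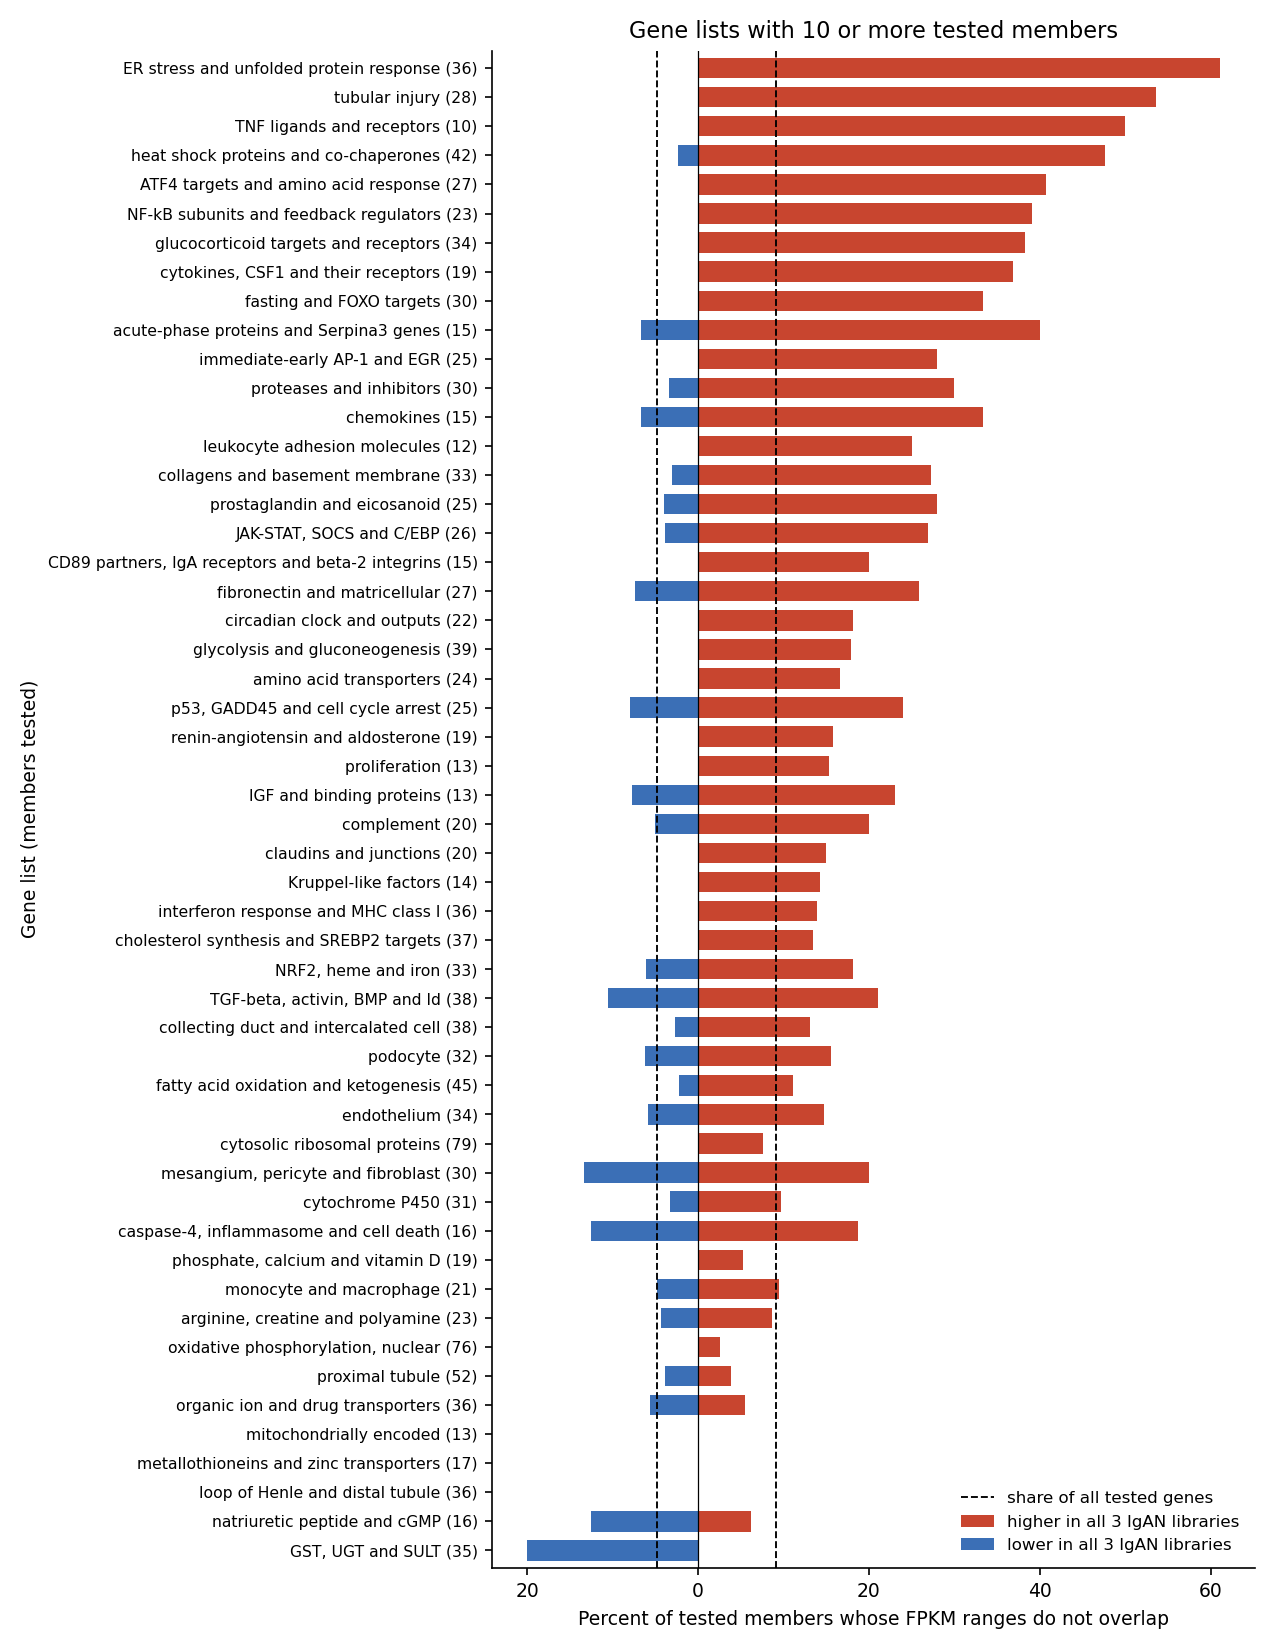
Bars give, for each gene list with 10 or more tested members, the percent of tested members with all IgAN libraries above (red, right) or below (blue, left) all WT libraries, with the number tested in brackets. Dashed lines mark the same shares of all tested genes, 9.18% upward and 4.8% downward. Reticulum stress (22 of 36) and tubular injury (15 of 28) have the longest bars to the right, and the glutathione, glucuronide and sulfate transferases (7 of 35) the longest to the left.

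Many genes of tubular injury had higher values in IgAN, and for most of those named here, though not Ccl2 or Vcam1, IgAN replicate 1 stood well above the other IgAN libraries. Of 28 tested genes, 2 rose (Vcam1, whose call ended without IgAN replicate 3 at a limma adjusted p of 0.0608, and Ccl2, whose call ended without 7 of the 9 libraries at 0.0535 to 0.137). The filter kept 1 of the 28 only through IgAN libraries, so the upward count describes the filter as well as the groups. In all, 15 had ranges apart upward and 0 downward, and the median log2 change was 0.73. Without IgAN replicate 1 that median was 0.45, and with replicate 1 of both groups left out it was 0.52. Havcr1, the injury marker KIM-1 of the proximal tubule, was at 0.282, 0.696 and 0.116 FPKM in WT and at 43.8, 1.33 and 1.79 FPKM in IgAN. Timp1, an inhibitor of matrix metalloproteinases, was at 0.703, 0.794 and 0.472 FPKM in WT and 22.2, 1.24 and 1.91 FPKM in IgAN. Havcr1 and Timp1 reached 1 FPKM in no WT library. In both genes the 3 IgAN libraries lay above WT, but replicate 1 was many times higher than the other IgAN libraries, and neither passed (limma adjusted p = 0.39 and 0.419). Krt20, a keratin of injured epithelium, was at 14.2 FPKM in IgAN replicate 1 and at most 0.232 FPKM in the other 5. Clu, the secreted chaperone clusterin, was more even among the IgAN libraries, at 56.9, 90.6 and 90.9 FPKM in WT and 244, 163 and 164 FPKM in IgAN, without passing (limma adjusted p = 0.0917). Cdkn1a, the cell cycle inhibitor p21, was at 3.53, 4.32 and 5.39 FPKM in WT and 28, 11.2 and 9.53 FPKM in IgAN (limma adjusted p = 0.105).

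**Figure D4:**
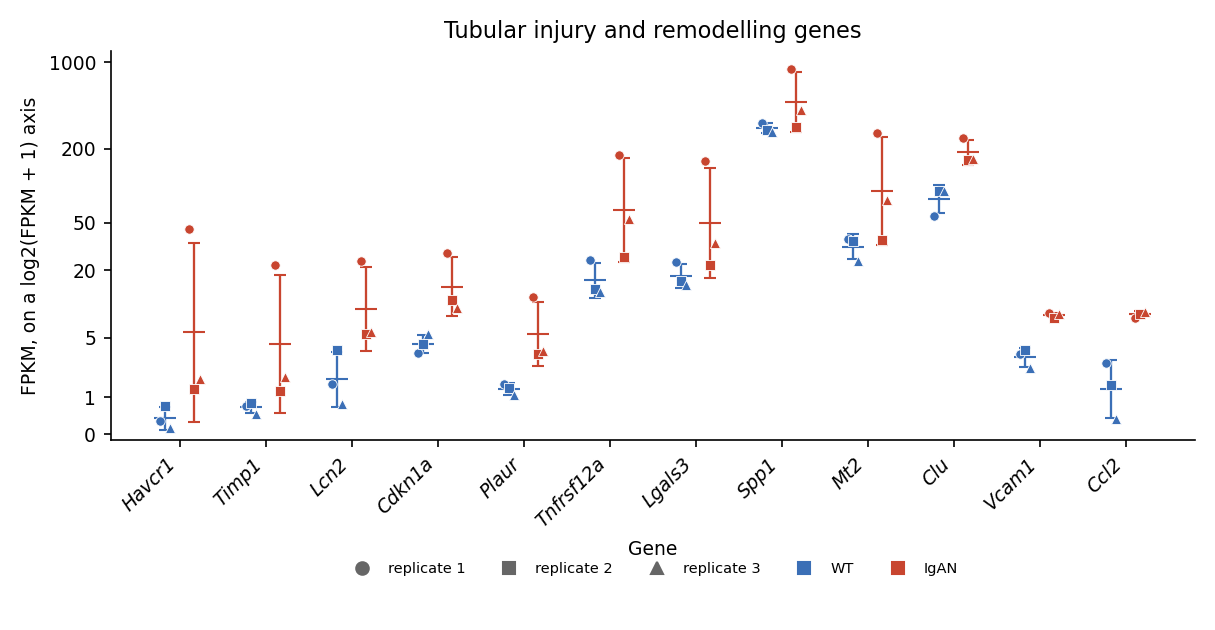
FPKM of 12 injury and remodelling genes on a log2(FPKM + 1) axis, with 1 symbol for each WT (blue) and IgAN (red) library and a bar for the mean with its SD on that axis. IgAN replicate 1 (red circle) is the highest library for all but Ccl2, and it stands at 43.8 FPKM for Havcr1, where the other IgAN libraries are at 1.33 and 1.79.

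Plet1, a surface protein of epithelial progenitors, was at 7.15 ± 1.79 FPKM in WT and 17.2 ± 2.06 FPKM in IgAN (SD, n = 3; log2 change 1.17, limma adjusted p = 0.0239). Its call held without WT replicate 1 or 2 or GQYS replicate 1 or 2, and ended without each of the other 5 libraries (limma adjusted p 0.0531 to 0.0851).

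Immediate-early genes, which respond within minutes to growth factors and stress, split by library. Maff, a small Maf transcription factor, was at 0.674, 0.31 and 0.192 FPKM in WT and at 4.65, 1.95 and 3 FPKM in IgAN (log2 change 1.56 ± 0.221, SE, limma adjusted p = 0.0218). It was the 1 gene that rose of 25 tested, of which 7 had ranges apart upward, with a median log2 change of 0.09 (range -0.03 to 0.40). Egr1, an immediate-early zinc finger factor, was at 71 FPKM in WT replicate 1 and 1.22 to 8.49 FPKM in the other 5. Without WT replicate 1 the median of the list was 0.40. Klf6, a Kruppel-like factor of wounded tissue, rose by 0.80 from 7.27 ± 0.164 to 13.6 ± 2.52 FPKM (SD, n = 3; limma adjusted p = 0.0343), the 1 member that passed of 14 tested factors of its family. The call of Maff ended without WT replicate 2, WT replicate 3 or IgAN replicate 3 (limma adjusted p = 0.0947, 0.0798 and 0.106). That of Klf6 held without WT replicate 1 and ended without each of the other 8 libraries (0.0589 to 0.111).

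Of the glomerular cell types, the clearest difference was a fall of 1 transcription factor. Tcf21, which is needed for podocyte and kidney stroma differentiation, was at 24.7, 20.3 and 18.2 FPKM in WT and at 6.23, 7.67 and 9.44 FPKM in IgAN (log2 change -1.33 ± 0.165, SE, limma adjusted p = 0.0115). The highest IgAN library was far below the lowest WT library. Its call ended without WT replicate 2 (limma adjusted p = 0.0547). It was the 1 gene that passed of 32 tested podocyte genes, whose median log2 change was 0.02 (range -0.06 to 0.08). Of the 32, 5 had ranges apart upward and 2 downward, against 9.18% and 4.8% of all tested genes. Nphs1, which encodes the slit diaphragm protein nephrin, overlapped between the groups, at 3.8 to 5.04 FPKM in WT and 4.19 to 5.17 FPKM in IgAN (limma adjusted p = 0.958). Podxl, the sialoprotein of the podocyte surface, was at 30.8 to 45.3 FPKM in WT and 32.1 to 46 FPKM in IgAN (0.961). The summed level of the podocyte list overlapped between the groups, at 451 to 550 FPKM in WT and 488 to 530 FPKM in IgAN.

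Tcf21 was also the 1 gene that passed of 30 tested genes of mesangium, pericytes and fibroblasts. Of these, 6 had ranges apart upward and 4 downward, against 9.18% and 4.8% of all tested genes. The median log2 change was 0.20. Ogn, osteoglycin of the stromal matrix, was at 8.91, 7.29 and 8.72 FPKM in WT and 3.35, 3.57 and 5.69 FPKM in IgAN (limma adjusted p = 0.0746, or 0.0221 without IgAN replicate 3). Gucy1a1, a subunit of the nitric oxide receptor of mesangial and smooth muscle cells, was at 4.19, 4.47 and 4.12 FPKM in WT and 2, 1.75 and 2.87 FPKM in IgAN (limma adjusted p = 0.0762). Acta2, smooth muscle actin, was in the opposite direction, at 23.6, 14 and 17.7 FPKM in WT and 27, 27.1 and 29.6 FPKM in IgAN (limma adjusted p = 0.22). None of these 3 passed, although Acta2 passed without WT replicate 1 (limma adjusted p = 0.0439) and with quality weights (0.00743). Pde9a, which degrades cyclic GMP, was at 8.62, 8.77 and 7.68 FPKM in WT and 5.34, 4.98 and 5.25 FPKM in IgAN, just short of the threshold (limma adjusted p = 0.0534), and 0 of 16 tested genes of natriuretic peptides and cyclic GMP passed (1 higher and 2 lower at an unadjusted p under 0.05). Of 34 tested endothelial genes, Plat alone rose and the median log2 change was -0.01 (range -0.09 to 0.07).

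Id proteins are inhibitors of basic helix-loop-helix transcription factors and are induced by bone morphogenetic proteins. Id3 was at 84.2, 60 and 58.9 FPKM in WT and at 29.8, 30.2 and 33.3 FPKM in IgAN (log2 change -1.08 ± 0.178, SE, limma adjusted p = 0.0409). The other members of the family had ranges apart in the same direction without passing. Id1 was at 30.3, 19.2 and 16.2 FPKM in WT and 10.4, 12.8 and 11.2 FPKM in IgAN (limma adjusted p = 0.244). Id2 was at 232, 248 and 259 FPKM in WT and 211, 141 and 161 FPKM in IgAN (limma adjusted p = 0.179), and Id4 was at 7.97, 7.51 and 8.9 against 2.47, 4.39 and 4.45 FPKM (0.121). These 4 were all of the downward separations among 38 tested genes of TGF-beta, activin, BMP and Id, of which 8 had ranges apart upward. Bmp4, a ligand of this pathway, was at 11.3 to 13 FPKM in WT and 13.1 to 16 FPKM in IgAN (limma adjusted p = 0.605). Fstl3, a secreted inhibitor of activin, was at 2.72, 2.56 and 2.53 FPKM in WT and 4.75, 4.95 and 4.75 FPKM in IgAN (log2 change 0.69, limma adjusted p = 0.0222). The call of Id3 held without WT replicate 1, GQYS replicate 1 or GQYS replicate 2 and ended without each of the other 6 libraries (limma adjusted p 0.0784 to 0.139). That of Fstl3 held without WT replicate 1, GQYS replicate 1 or GQYS replicate 3 and ended otherwise (0.0515 to 0.102).

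The remaining genes that fell had different functions. Hpgd, the enzyme that inactivates prostaglandins, was at 8.61, 9.31 and 7.85 FPKM in WT and at 3.4, 4.46 and 4.28 FPKM in IgAN (log2 change -0.93 ± 0.121, SE, limma adjusted p = 0.0136). Ptger4, a receptor for prostaglandin E2, was at 1.14 to 1.24 FPKM in WT and 1.72 to 2.48 FPKM in IgAN without passing (limma adjusted p = 0.165), and Hpgd was the 1 gene that passed of 25 tested in this pathway. Adamts5, an aggrecan- and versican-cutting protease, was at 2.7, 2.75 and 2.46 FPKM in WT and at 1.02, 1.03 and 1.39 FPKM in IgAN (log2 change -0.76, limma adjusted p = 0.0292). Nap1l5, an imprinted gene of the nucleosome assembly protein family, was at 3.21, 3.06 and 3.38 FPKM in WT and at 1.76, 1.32 and 1.37 FPKM in IgAN (log2 change -0.77, limma adjusted p = 0.0369). Ccdc68, a centriole protein, was at 5.43, 4.85 and 4.22 FPKM in WT and at 2.7, 2.6 and 2.22 FPKM in IgAN (log2 change -0.73, limma adjusted p = 0.0443). In all 4 the highest IgAN library lay below the lowest WT library. The call of Hpgd ended without WT replicate 2 (limma adjusted p = 0.0694) and without IgAN replicate 3 (0.0608). That of Adamts5 held without WT replicate 1 or GQYS replicate 1 only (otherwise 0.0539 to 0.111), that of Nap1l5 held without GQYS replicate 1 only (otherwise 0.0501 to 0.161), and that of Ccdc68 ended without each of the 9 libraries in turn (0.0585 to 0.178).

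**Figure D5:**
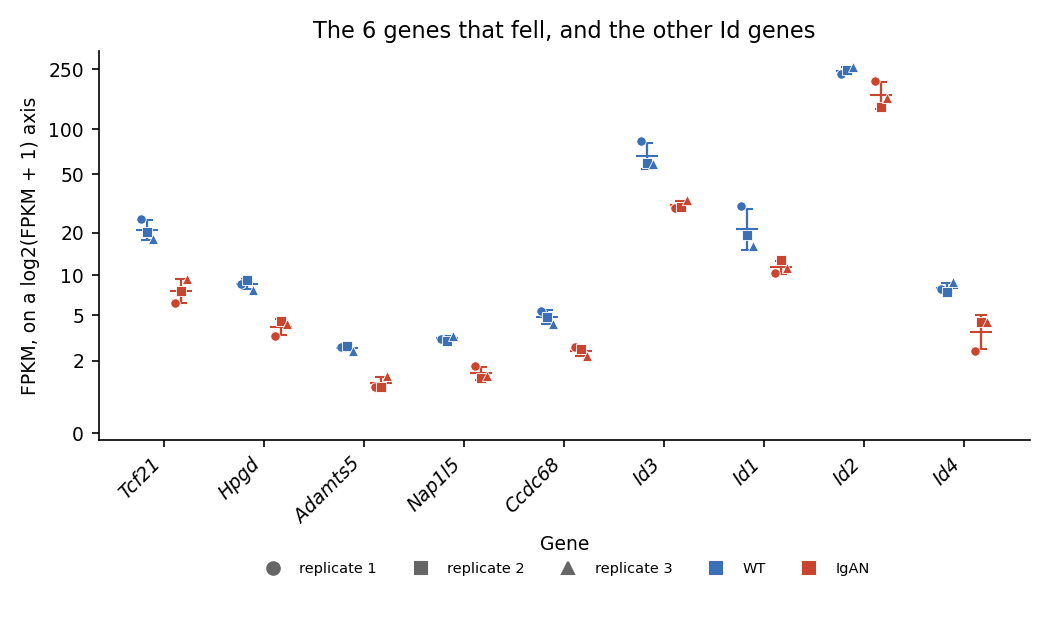
FPKM of the 6 genes that fell and of Id1, Id2 and Id4, which did not pass, on a log2(FPKM + 1) axis, with 1 symbol for each WT (blue) and IgAN (red) library and a bar for the mean with its SD on that axis. In all 9 genes the highest IgAN library lies below the lowest WT library, with Id2 the closest, at 211 against 232 FPKM.

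No gene of the collagen and matricellular lists passed, while ranges apart upward were more frequent than the 9.18% of all tested genes. Of 33 tested collagens and basement membrane genes, 0 passed (12 higher and 2 lower at an unadjusted p under 0.05), 9 had ranges apart upward and 1 downward, and the median log2 change of 0.16 was 0.06 without IgAN replicate 1 and -0.02 with replicate 1 of both groups left out. Col4a1, a collagen chain of basement membranes, was at 27.5, 32.2 and 35.7 FPKM in WT and 54.7, 41.2 and 46.7 FPKM in IgAN (limma adjusted p = 0.129). Of 27 tested fibronectin and matricellular genes, 0 passed (8 higher and 2 lower at an unadjusted p under 0.05), with 7 ranges apart upward and 2 downward and a median log2 change of 0.24 (range 0.11 to 0.26). Without IgAN replicate 3, 1 of the 27 passed. P4ha1, a subunit of the prolyl hydroxylase of collagen, rose by 0.87 from 17.1 ± 1.88 to 32.1 ± 4.96 FPKM (SD, n = 3; limma adjusted p = 0.034). Plat, the tissue plasminogen activator of glomerular endothelium, rose by 0.66 from 19 ± 1.48 to 30.7 ± 3.79 FPKM (limma adjusted p = 0.0447). Tinagl1, a matrix protein related to the tubulointerstitial nephritis antigen, rose by 0.93 from 17.9 ± 2.71 to 35.2 ± 7 FPKM (limma adjusted p = 0.0465). The call of P4ha1 held without WT replicate 1 or IgAN replicate 1 and ended otherwise (limma adjusted p 0.0564 to 0.139). That of Plat held without WT replicate 1 or IgAN replicate 2 and ended otherwise (0.0881 to 0.177), and that of Tinagl1 ended without each of the 9 libraries in turn (0.0587 to 0.141).

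The other genes that rose belong to signalling, the cytoskeleton and lipid handling. Gramd1b, a carrier of cholesterol between membranes, was at 5.56, 5.89 and 4.94 FPKM in WT and at 13.3, 11.5 and 10.6 FPKM in IgAN (log2 change 0.98, limma adjusted p = 0.0136). Akap12, a scaffold of protein kinase A, was at 1.87, 2.69 and 2.42 FPKM in WT and at 7.7, 5.79 and 5.28 FPKM in IgAN (log2 change 1.12, limma adjusted p = 0.0141). Csrp1, an actin-associated LIM protein, was at 16, 18.9 and 18 FPKM in WT and at 28.9, 29.9 and 32.9 FPKM in IgAN (log2 change 0.76, limma adjusted p = 0.0179). All 3 separated the groups with little spread inside them. Tgif1, a repressor of TGF-beta signalling, rose by 0.95, Sema7a, a membrane-anchored semaphorin, by 0.74, Fgd3, an exchange factor for Cdc42, by 1.08, and Cib2, a calcium-binding protein, by 0.57 (limma adjusted p = 0.0343, 0.0369, 0.0369 and 0.0482). Their mean levels went from 2.11, 1.7, 1.46 and 1.45 FPKM in WT to 5.01, 3.53, 4.15 and 2.64 FPKM in IgAN. The call of Gramd1b ended without WT replicate 2 (limma adjusted p = 0.0544) and WT replicate 3 (0.057), and that of Akap12 without WT replicate 3 (0.0513). That of Csrp1 ended without WT replicate 2 or 3 or IgAN replicate 2 or 3 (0.0573, 0.0607, 0.0602 and 0.106). Those of Tgif1 and Sema7a ended without 7 libraries each (limma adjusted p 0.0564 to 0.131 and 0.0717 to 0.14), holding without WT replicate 1 in both, without GQYS replicate 1 for Tgif1 and without IgAN replicate 2 for Sema7a. That of Fgd3 held without GQYS replicates 2 or 3 only (otherwise 0.053 to 0.137), and that of Cib2 ended without each of the 9 libraries (0.0605 to 0.172).

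No gene of nephron transport passed, which does not show that levels were equal. Of 52 tested proximal tubule genes, 0 passed (2 higher and 1 lower at an unadjusted p under 0.05), 2 had ranges apart upward and 2 downward, and the median log2 change was -0.03 (range -0.11 to 0.06). Slc34a1, the phosphate transporter of that segment, was at 1437 to 1889 FPKM in WT and 1557 to 1656 FPKM in IgAN (limma adjusted p = 0.973). Of 36 tested genes of the loop of Henle and distal tubule, 0 passed (0 at an unadjusted p under 0.05) and 0 had ranges apart in either direction, with a median log2 change of 0.10 (range -0.06 to 0.21). Umod, uromodulin of the thick ascending limb, was at 942 to 1628 FPKM in WT and 1165 to 1665 FPKM in IgAN. Of 38 tested collecting duct and intercalated cell genes, 0 passed (4 higher and 1 lower at an unadjusted p under 0.05), 5 had ranges apart upward and 1 downward. The filter kept 1 of the 38 only through IgAN libraries. Cldn4, a tight junction protein, was at 3.89, 5.12 and 5.3 FPKM in WT and 22.4, 9.55 and 8.94 FPKM in IgAN (limma adjusted p = 0.142).

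Among metabolic lists, 0 of 45 tested fatty acid oxidation genes, 0 of 76 nuclear genes of oxidative phosphorylation and 0 of 79 cytosolic ribosomal protein genes passed, with median log2 changes of 0.09, 0.08 and 0.09. Without WT replicate 1 the oxidative phosphorylation and ribosomal medians were 0.22 and 0.23, and without IgAN replicate 1 they were 0.03 and -0.01. At an unadjusted p under 0.05 these lists had 5, 0 and 1 genes higher and 0 lower. Cyp4a14, a fatty acid hydroxylase induced through PPAR alpha, was at 7.41, 12.3 and 6.35 FPKM in WT and 17.9, 29.7 and 24.7 FPKM in IgAN (limma adjusted p = 0.0549, or 0.036 without WT replicate 2). For the 13 tested genes encoded in mitochondria, the median log2 change was -0.32, or -0.02 without WT replicate 1, the library with the highest share of their reads. Among lists with 10 or more tested genes, the conjugating enzymes had the largest share of ranges apart downward, with 7 of 35 tested glutathione, glucuronide and sulfate transferases apart downward and 0 upward, against 4.8% of all tested genes downward. None passed, and 1 was higher and 7 lower at an unadjusted p under 0.05. Ugt2b38, a glucuronosyltransferase, was at 548, 531 and 491 FPKM in WT and 364, 407 and 440 FPKM in IgAN (limma adjusted p = 0.266).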

How the data were processed

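Kidney RNA was sequenced in 9 libraries, and the 6 of the WT and untreated IgAN groups were compared. The authors deposited 1 table of FPKM per gene for all libraries. Per the submitters' processing notes, fastp, HISAT2, HTSeq, DESeq2, R 3.2.0 and GRCm39 were used, without stated roles. Strand setting and annotation were not given in the sources used here. The deposited FPKM were whole multiples of 1 read's worth (tolerance 0.03) for all 26139 genes, which gave the reads per library.

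Genes at 1 FPKM or more in at least 3 of 9 libraries were kept, and limma 3.58.1 (R 4.3.3) was fitted to log2(FPKM + 1) over all 9 libraries with a mean-variance trend and Benjamini-Hochberg adjustment. Itgam was tested by a two-sided exact permutation test. Summaries used Python 3.11.15. The fit was tested on simulated data. Alternatives changed the pseudocount, filter, scaling, libraries, weights, trend and replicate block, and used voom on the recovered reads.

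The 63 gene lists and the members were chosen with earlier results of these data known. Named were the 20 genes with the smallest p among those called, every gene that fell, list members past the threshold or otherwise up to 4 with the smallest p, Itgam and its neighbours, the 10 most abundant genes, and sex-linked and substrain genes. Every other gene named was chosen after its values were seen. Promoters came from RefSeq (GRCm38.p6), matched by symbol. The human receptor was not analysed here. Some genes that the naming rule selects are not reported here.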

Additional observations from a re-analysis of the deposited data

How the results depend on the processing

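Against 41 calls with limma, 35 higher and 6 lower, counts were 21 (18 and 3) with no filter on low values, 11 (11 and 0) on the 6 WT and IgAN libraries alone, and 655 (359 and 296) with library quality weights. Limma-voom on the recovered reads gave 30 higher and 3 lower. Median ratio scaling and quantile normalization gave 35 calls each, and scaling without mitochondrial reads in the total gave 30. That last scaling ended the calls of 11 genes: Ccdc68, Cib2, Id3, Klf6, P4ha1, Pim1, Plat, Sema7a, Tgif1, Tinagl1 and Ucp2. Leaving out 1 library gave 14 to 65 calls, 13 to 54 higher and 0 to 11 lower. The counts of 0 lower were without WT replicate 2 and on the 6 libraries alone, where limma tests fewer samples. In the fit added after seeing the data, without WT and IgAN replicate 1 together, 58 genes passed, 49 higher and 9 lower, and 30 of the 41 were among them. With the replicate number as a block 68 passed, 58 higher and 10 lower. Correlations of same-numbered WT and IgAN deviations were 0.581, 0.467 and 0.078, and WT replicate 3 correlated best with IgAN replicate 2 (0.526), so the numbers were not taken to pair the samples. Itgam stayed on the same side under the replicate block (exact permutation p = 0.5). The cause of these differences was not tested. The count of calls moved most with the quality weights, and 3 libraries a group limit the precision.

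Some genes named beside the results that did not pass took the opposite sign in an alternative fit, with these log2 changes. Without WT and IgAN replicate 1 together these were Egr1 at 0.33, ND1 at 0.01, ND4 at 0.06, Umod at -0.04. Without mitochondrial reads in the total these were Gpx3 at -0.01, Kap at -0.01, Slc34a1 at -0.02. With library quality weights these were ND1 at 0.07, ND2 at 0.02, ND4 at 0.10, Umod at -0.21. With quantile normalization these were ND4 at 0.09, Podxl at -0.03, Slc34a1 at -0.08. With median ratio scaling these were Slc34a1 at -0.01. Leaving out 1 library gave Ddx3y -0.35 to 0.05, Egr1 -1.80 to 0.71, Entpd4b -0.99 to 0.08, Gpx3 -0.06 to 0.09, Kap -0.15 to 0.29 and ND1 -0.46 to 0.11. It gave ND4 -0.42 to 0.20, Nphs1 -0.04 to 0.12, Podxl -0.11 to 0.20, Slc34a1 -0.05 to 0.15, Umod -0.06 to 0.33 and Nnt -0.48 to 0.06. None of these was called in the fit reported.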
